A study of Mus musculus with 12 samples.

Results

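Transcripts of 39 genes of microglia and other macrophages were followed in RNA of the lumbar spinal cord of mice aged 30 days, 8 of them MFN2 and 4 of them WT. The genes were taken from a list of symbols, each of which matched 1 of the 49548 Ensembl genes counted; no threshold on a measured value entered the list. MFN2 mice are MitoCharc1 animals, labelled CMT2A with the transgene Tg(Eno2-MFN2*R94Q)L51Ugfm/J on a B6;D2 background, which carry human MFN2 with the R94Q change of Charcot-Marie-Tooth disease type 2A. The neuron-specific rat Eno2 promoter drives this transgene, the mice are hemizygous for it, and they keep both mouse copies of Mfn2. WT mice carry no transgene; they are labelled C57BL/6, and the methods of the study call them littermates. No mouse was treated, and each library is named here by the number in its label. The libraries fall into runs of numbers. MFN2 libraries 41, 42 and 43 and all WT libraries, 44 to 47, are in the first run, and MFN2 libraries 72 to 76 form the second. No WT library is in the second run, so that run of numbers and genotype cannot be told apart for libraries 72 to 76. Total counts were 19359454 to 26738930 in MFN2 libraries and 19453238 to 23564568 in WT libraries.

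Microglia are the resident macrophages of the brain and spinal cord. They arise from the yolk sac, need signals through the receptor Csf1r to survive, sense neurons through Cx3cr1 and extracellular nucleotides through P2ry12, and clear debris and synapses tagged by complement C1q. Near dying neurons or protein deposits they lower homeostatic genes such as Cx3cr1 and P2ry12 and raise a set of disease-associated genes, and the full rise depends on the receptor Trem2. A separate population, the perivascular and meningeal macrophages, lines vessels and membranes and is marked by Mrc1, Cd163 and Lyve1. The 39 genes were read in 4 groups along these lines: 11 genes of microglial identity, 17 genes shared by microglia and other myeloid cells, 7 disease-associated genes and 4 perivascular genes.

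Levels are given as CPM, counts scaled to the effective library size. Of the 39 genes, 36 passed the filter of more than 1 CPM in at least 3 libraries, there scaled to the total count. These 36 were tested with 15942 genes in all. These were 11 of 11 identity genes, 17 of 17 shared myeloid genes, 5 of 7 disease-associated genes and 3 of 4 perivascular genes. The disease-associated genes Cst7, an inhibitor of lysosomal proteases, and Itgax, an integrin, and the perivascular hyaluronan receptor Lyve1 did not pass. Their counts were 0 to 10 for Cst7, 3 to 30 for Itgax and 1 to 15 for Lyve1 per library, which is too few for a comparison. Cst7 had 10, 2 and 2 counts in MFN2 libraries 41 to 43, 4, 1, 0 and 4 in WT libraries 44 to 47, and 0, 2, 0, 3 and 2 in MFN2 libraries 72 to 76. Itgax had 30, 5 and 6 counts, 23, 10, 11 and 5 counts, and 18, 5, 16, 3 and 13 counts in the same order. A count of 0 allows up to 3 counts, which is 0.114 to 0.157 CPM in these libraries and covers counting error only.

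MFN2 libraries 43 and 73 and WT library 44 stood apart from the rest. MFN2 library 43 held 2849 CPM summed over 9 forebrain genes, against 26.5 to 57.5 CPM elsewhere, and its sum over 8 caudal Hox genes was 42.8 CPM against 236 CPM or more elsewhere. Its motor neuron sum was 362 CPM against at least 1764 CPM elsewhere, so that the label of lumbar cord did not hold for this library by these markers. WT library 44 held 87.0 CPM over 16 genes of blood leukocytes, against 5.18 to 35.5 CPM in the others, with S100a9 at 19.6 CPM, Ngp at 18.3 CPM and Mpo at 10.7 CPM. MFN2 library 73 held Prx, a gene of myelinating Schwann cells, at 50.4 CPM, which reached 35.5 CPM in library 43 and at most 1.22 CPM in the other 10; the sum of the Schwann cell list, most of it Mbp, was not raised in either, at 0.858 and 0.288 of the WT mean. Library 73 also had the highest sums of red blood cell genes and of the 4 perivascular genes, each 2.46 times the WT mean. Library 41 had no foreign markers of this kind but was the highest of the 12 libraries for 13 of the 17 shared myeloid genes. Results are therefore also given without libraries 43, 44 and 73, an alternative chosen after the data were seen.

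In WT cord the 39 genes ranged widely in level. On the scale of RPKM, the CPM divided by the exon length of the gene in kilobases, which allows genes to be compared, Spp1 was highest at 48.2 ± 8.82 (SD, n = 4) and the lysosomal protease Ctss next at 43.8 ± 2.15. C1qa followed at 15.4 ± 2.06, C1qb at 13.8 ± 3.21 and C1qc at 10.4 ± 2.08, the chains that together build the C1q recognition molecule. The receptors Csf1r and Cx3cr1 stood at 9.82 ± 1.31 and 6.71 ± 0.586, P2ry12 at 5.71 ± 0.827 and Tmem119 at 2.84 ± 0.669. Neighbours in this order such as C1qa and C1qb, or Fcgr3, Tmem119 and Selplg, differed by less than their SD, while the step from Ctss to C1qa exceeded it. Lyve1 was lowest at 0.0547 ± 0.0272 RPKM. Apart from Spp1 and the receptor kinase Axl, the disease-associated and perivascular genes lay below 0.7 RPKM. Spp1 is also made by spinal motor neurons and Axl by other glia and vessels, so that a high level of either in bulk cord is not a level in microglia.

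**Figure D1:**
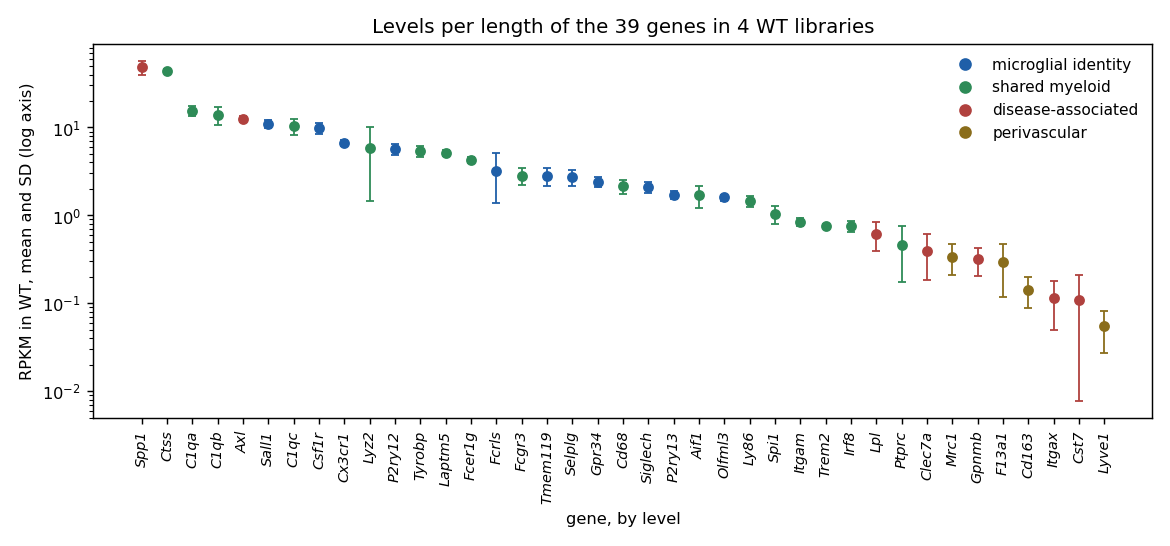
Mean RPKM (log axis) of the 39 genes in the 4 WT libraries, in order of level, with bars for the SD; colours give the 4 gene groups. Spp1 and Ctss stand at 48.2 and 43.8 RPKM, the 3 C1q chains between 10.4 and 15.4 RPKM, and Cst7, Itgax, Cd163 and Lyve1 at the low end.

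The first comparison set all 8 MFN2 libraries against the 4 WT libraries. The study made the same comparison and reported differentially expressed genes between the genotypes. Its methods name the generalized linear model approach of an earlier edgeR version, without saying whether the quasi-likelihood test was used. Why its calls differ from the counts given here was not tested. Of the 36 tested genes 0 passed an FDR of 0.05 in edgeR's quasi-likelihood test, and 0% of all genes tested did. At an unadjusted p of 0.05 in edgeR the count was 0 of the 36 genes and 2386 of all genes, and 8 and 3356 without MFN2 library 41. With all 12 libraries 0 of the 36 were called by DESeq2 or limma-voom, while DESeq2 called 200 of all genes. The log2 fold change lay below 0 for 28 of the 36 genes, with a median of -0.15 against 0.0038 over all genes. By group the median log2 fold change was -0.12 for identity genes, -0.19 for shared myeloid genes, -0.16 for disease-associated genes and 0.52 for perivascular genes. The perivascular median, over 3 tested genes, is the value of Cd163, which passed the filter through MFN2 libraries of the second run, where it is high. With 1 library left out, the identity median lay between -0.236 (without MFN2 library 43) and -0.0702 (without WT library 45), and the shared myeloid median between -0.376 (without MFN2 library 41) and -0.101 (without MFN2 library 75). The lowest adjusted p among the 36 was 0.419, for Laptm5. In 0 of the 36 genes did the levels of MFN2 and WT mice fail to overlap, against 2.04% of all genes, 0.979% higher and 1.07% lower. When the run entered the fit as a covariate, the median of the 36 genes was 0.11, but the genotype term then rests on libraries 41 to 43 against WT. MFN2 libraries 41 to 43 and 72 to 76 were therefore also set against WT separately, with the same 4 WT libraries as controls in both comparisons. The first of these stays within 1 run of numbers and the second crosses runs.

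MFN2 libraries 41 to 43 did not differ from WT in any of the 36 genes at an FDR of 0.05. The edgeR test called 1 gene of 15941 (0.00627%), and DESeq2 and limma-voom called 0 of the 36 genes. At an unadjusted p of 0.05 in edgeR the count was 0 of the 36 genes and 1148 of all genes (7 and 1979 without library 42, 3 and 2395 without library 41). The log2 fold change was above 0 in 26 of 36 genes, in 10 of 11 identity genes and in 14 of 17 shared myeloid genes, with a median of 0.12 over the 36 against -0.0021 over all genes. The median moved with single libraries, from -0.019 without library 41 to 0.29 without library 42. It was 0.0446 without library 43 and 0.0499 without libraries 43 and 44. Library 43, the one with forebrain transcripts, was the highest of the 12 libraries for 8 of the 11 identity genes. Spp1 was the 1 gene whose levels did not overlap with WT, against 8.81% of all genes, 4.53% higher and 4.28% lower; Spp1 was lower.

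MFN2 libraries 72 to 76 were lower than WT for 14 of the 36 genes and higher for 0 at an FDR of 0.05. In the edgeR fit 23.5% of all genes were called in either direction, 12.2% as lower and 11.4% as higher, so that this comparison moved a large part of the transcriptome. The genes called lower were 5 of 11 identity genes (Cx3cr1, P2ry12, Tmem119, Csf1r and Selplg), 7 of 17 shared myeloid genes (C1qa, C1qb, C1qc, Laptm5, Irf8, Spi1 and Fcgr3) and 2 of 5 disease-associated genes (Axl and Gpnmb), with 0 of 3 perivascular genes. Gpnmb was below 1 CPM in all of libraries 72 to 76 and passed the filter only through the other libraries, so that the filter favoured a fall. It was also called lower in the fit without a filter. With Gpnmb left out, the count was 13 of 35. The median log2 fold change of the 36 genes was -0.35 against 0.0045 over all genes, and 31 of the 36 lay below 0. Levels of 11 genes, Gpnmb among them, did not overlap with WT, all of them lower, against 19.7% of all genes, 10.2% lower and 9.43% higher. In bulk RNA, fewer microglia and less RNA per microglial cell cannot be told apart. The higher and lower calls over all genes were 1812 and 1941 with TMM scaling and 2823 and 1346 with scaling by library size alone, under which 11 of the 36 genes were called, all lower.

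Leaving aside Gpnmb, which passed the filter only through the other libraries, 6 of the other 13 genes were called lower in all 17 alternative settings: Cx3cr1, Tmem119, Selplg, C1qa, Laptm5 and Axl. Gpnmb was called lower in all 17 as well, the fit without a filter among them. The number of called genes fell to 7 without WT library 45, to 8 without WT library 46 and to 9 without MFN2 library 75, and it was 15 without libraries 43, 44 and 73. The share of all genes called moved the same way, to 14.8%, 15.6%, 17% and 25.9%. P2ry12, with an adjusted p of 0.0489 in edgeR, was called in 6 of the 17 settings, Csf1r and Irf8 in 9, C1qb and Spi1 in 12, Fcgr3 in 14 and C1qc in 15.

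**Figure D2:**
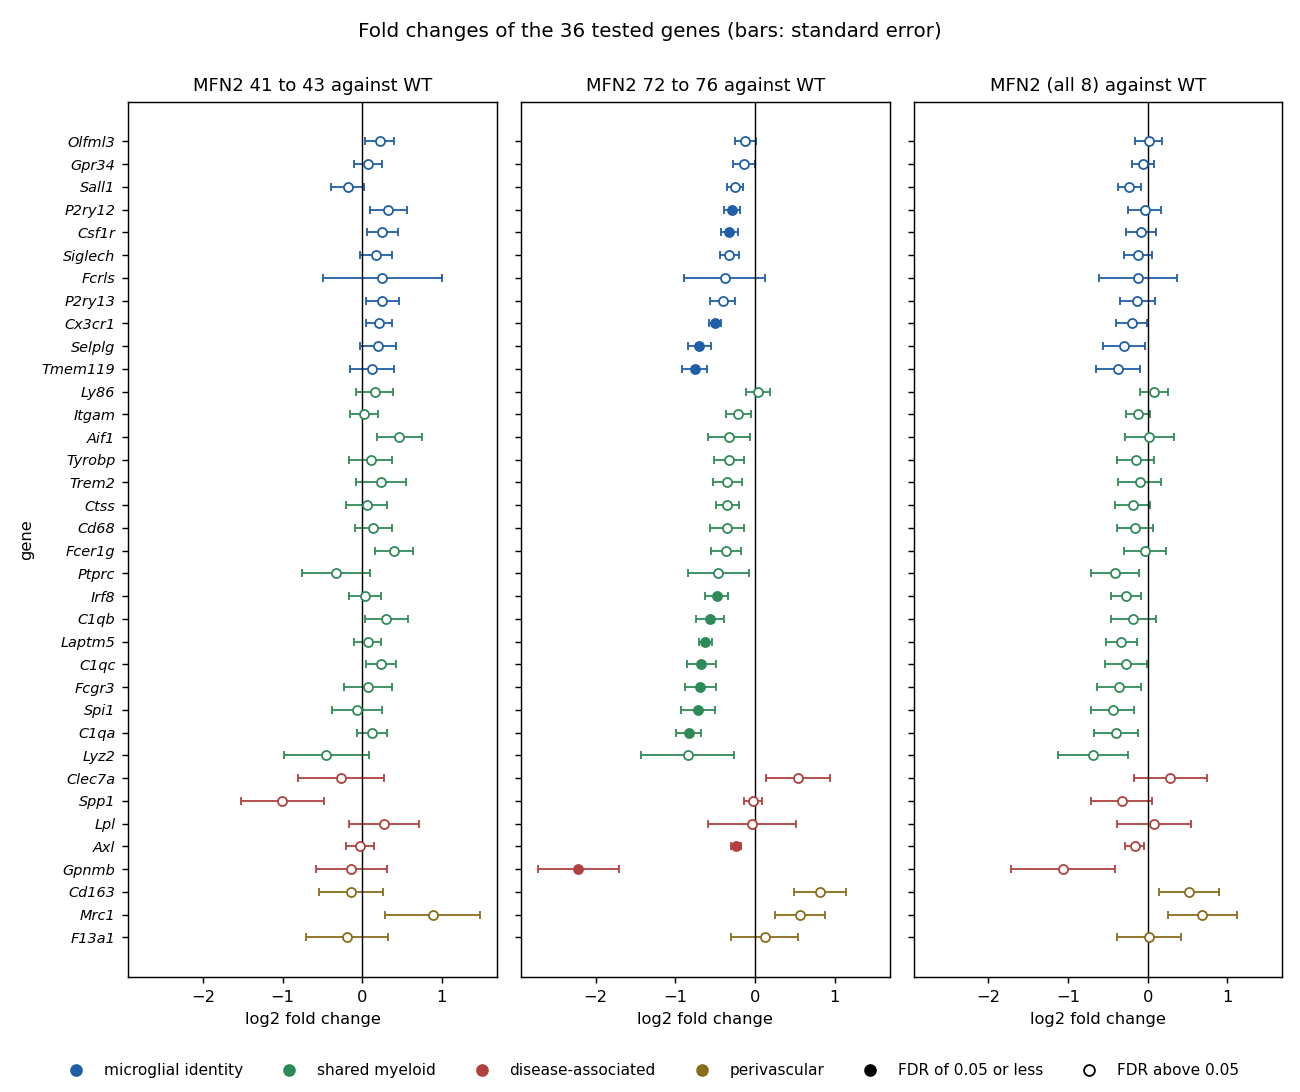
Log2 fold change with standard error of the 36 tested genes in MFN2 libraries 41 to 43, in MFN2 libraries 72 to 76 and in all 8 MFN2 libraries, each against the same 4 WT libraries; filled points passed an FDR of 0.05. In the middle panel 14 points are filled, all left of 0; in the others 0 are filled.

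Among the identity genes, Cx3cr1, the receptor for the neuronal chemokine fractalkine, lies at chr9:119901616-120069879 on the minus strand (GRCm38). Its level was 37.6, 25.4 and 40.5 CPM in MFN2 libraries 41 to 43, 27.2, 32.9, 28.9 and 31.9 CPM in WT libraries 44 to 47, and 21, 20.3, 23.0, 19.3 and 22.9 CPM in MFN2 libraries 72 to 76. The 5 libraries of the second run were lower than every other library. Cx3cr1 was 29.3% below WT there (log2 fold change -0.50 ± 0.08 SE, edgeR adjusted p = 0.0011), while it was 0.21 ± 0.16 on the log2 scale in libraries 41 to 43 (adjusted p = 0.688) and -0.20 ± 0.20 in all 8 (adjusted p = 0.616). The annotated span of Cx3cr1 overlaps 9 other genes, of which 4 were tested. Gorasp1, on the same strand, was lower in the second run (-0.26 ± 0.08, edgeR adjusted p = 0.027), and Csrnp1, also on that strand, was 0.08 ± 0.17 (adjusted p = 0.755). On the opposite strand Wdr48 was 0.08 ± 0.05 and Ttc21a -0.12 ± 0.37, with adjusted p of 0.304 and 0.856.

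Tmem119, a membrane protein used to tell microglia from blood macrophages, lies at chr5:113793729-113800516 on the minus strand. Its level was 8.58, 4.43 and 8.21 CPM in MFN2 libraries 41 to 43, 5.06, 8.38, 7.31 and 5.53 CPM in WT libraries, and 4.22, 3.41, 3.98, 3.48 and 4.28 CPM in MFN2 libraries 72 to 76. The second run lay below all 4 WT libraries and below all 3 other MFN2 libraries. The fall from WT was -0.76 ± 0.16 on the log2 scale (edgeR adjusted p = 0.0061), against 0.12 ± 0.28 in libraries 41 to 43.

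Selplg, the ligand of selectins, at chr5:113818536-113832644 on the minus strand, showed the same order. It stood at 17.4, 9.97 and 12.5 CPM in libraries 41 to 43, at 9.12, 14.5, 10.4 and 12.7 CPM in WT libraries, and at 7.78, 7.93, 7.60, 5.61 and 6.88 CPM in libraries 72 to 76. No library of the second run reached the lowest WT value, and Selplg was 38.5% below WT there (log2 fold change -0.70 ± 0.14, edgeR adjusted p = 0.0050).

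Csf1r and P2ry12 moved less and their groups overlapped. Csf1r, the receptor microglia need to survive, was at 76.3, 46.5 and 77.9 CPM in libraries 41 to 43, at 47.1, 65.5, 56.1 and 58.1 CPM in WT libraries, and at 48.0, 45.8, 45.1, 37.2 and 50.7 CPM in libraries 72 to 76. P2ry12, the receptor that steers microglial processes towards released nucleotides, was at 18.6, 11.8 and 23.8 CPM, at 12.3, 15.9, 13.2 and 16.8 CPM, and at 12.3, 11.1, 11.2, 12.7 and 11.8 CPM in the same order. Libraries 41 and 43 were the highest of all 12 for both genes, and WT library 44 was the lowest of the WT libraries. In the second run Csf1r was -0.32 ± 0.10 (edgeR adjusted p = 0.041) and P2ry12 -0.29 ± 0.10 on the log2 scale, while in libraries 41 to 43 they were 0.25 ± 0.19 and 0.33 ± 0.23, with adjusted p of 0.681 and 0.669. P2ry12 and P2ry13 lie within Med12l, which is transcribed from the opposite strand at 97.3 to 133 CPM. Med12l itself was 0.06 ± 0.05 in the second run (adjusted p = 0.392), and without the strand setting of the counting the reads of these genes cannot be told apart. Siglech, a lectin of microglia, did not pass the edgeR test, was called lower than WT in 2 of the 17 alternative settings (without WT library 44, and without libraries 43, 44 and 73), and separated the runs of MFN2 libraries, with 6.75, 6.84 and 10.3 CPM in 41 to 43, 5.94, 7.82, 6.64 and 8.09 CPM in WT, and 5.54, 6.32, 5.79, 5.19 and 5.51 CPM in 72 to 76.

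The other identity genes P2ry13, Gpr34, Olfml3, Sall1 and Fcrls did not pass the edgeR test in any of the 4 comparisons. DESeq2 called P2ry13 lower between the MFN2 runs, and in libraries 72 to 76 against WT P2ry13 was called in 1 of the 17 alternative settings, Sall1 in 3 and Fcrls in 2. Their log2 fold changes in the second run were -0.40 ± 0.16, -0.13 ± 0.14, -0.12 ± 0.13, -0.25 ± 0.10 and -0.38 ± 0.51. Olfml3, the one identity gene above 0 in all libraries (0.01 ± 0.17), had 12.1, 8.21 and 13.8 CPM in libraries 41 to 43, 8.77, 9.80, 10.3 and 10.6 CPM in WT, and 8.26, 11.7, 7.56, 7.82 and 10.04 CPM in libraries 72 to 76. Fcrls, a receptor-like protein of mouse microglia, had the widest ratio of highest to lowest level among the identity genes, from 1.05 CPM in WT library 44 to 16.1 CPM in MFN2 library 43. Sall1, a transcription factor that holds the microglial programme, was lowest in library 43 at 35.5 CPM, the library in which 8 of the other identity genes were highest. Gpr34 lies within Cask on the opposite strand, and Cask was higher in the second run (0.28 ± 0.05, edgeR adjusted p = 0.0023).

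**Figure D3:**
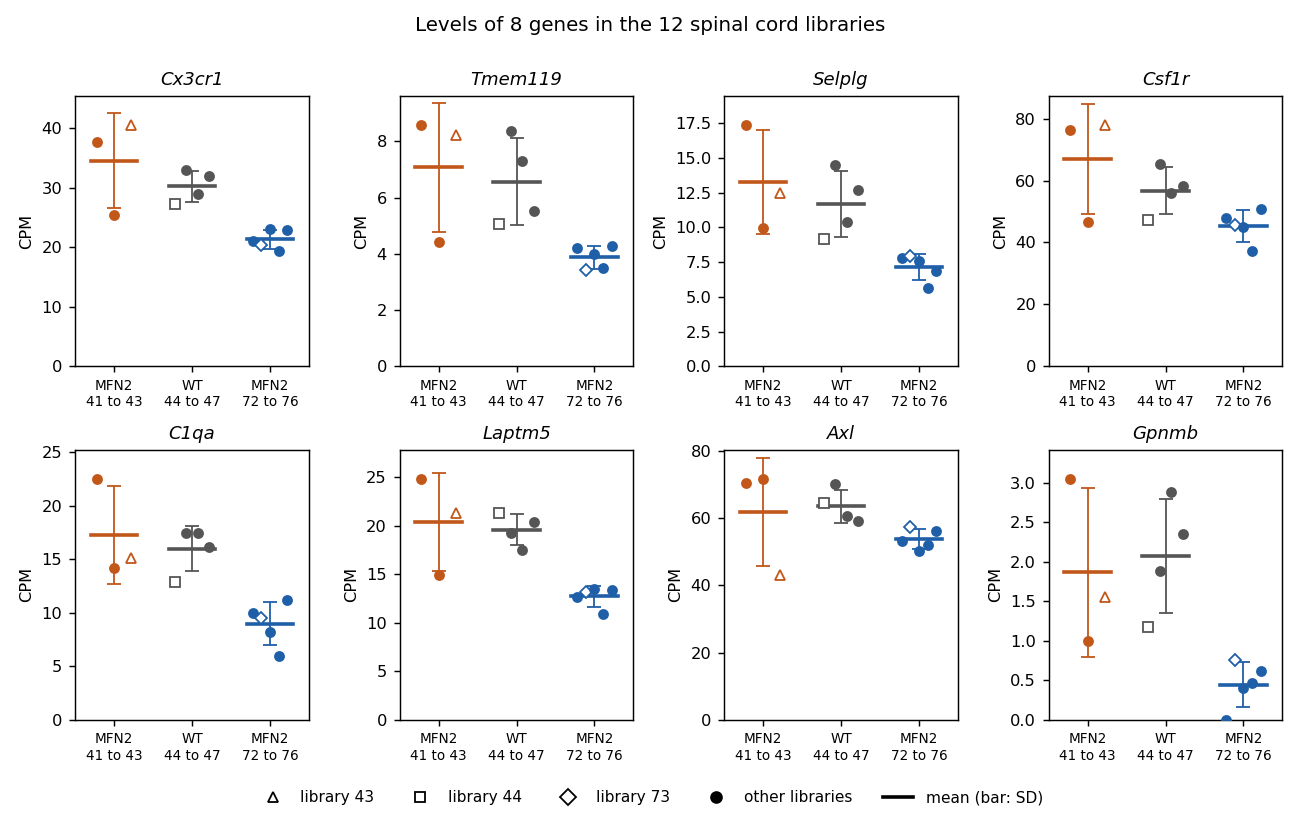
CPM in each of the 12 libraries for Cx3cr1, Tmem119, Selplg, Csf1r, C1qa, Laptm5, Axl and Gpnmb, by set of libraries, with the mean as a line and the SD as a bar; open symbols mark libraries 43, 44 and 73. The 5 libraries 72 to 76 lie below all 4 WT libraries for each gene but Csf1r, and libraries 41 to 43 spread across the WT range or beyond it.

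Among the genes shared with other myeloid cells, the 3 chains of C1q were all lower in the second run, though the calls of C1qb and C1qc were lost without WT library 45 and without WT library 46. C1qa (chr4:136895917-136898803, minus strand) was at 22.6, 14.2 and 15.2 CPM in MFN2 libraries 41 to 43, at 12.9, 17.5, 17.4 and 16.2 CPM in WT libraries, and at 10.02, 9.53, 8.25, 5.96 and 11.2 CPM in MFN2 libraries 72 to 76. C1qb was at 24.7, 11.6 and 18.8 CPM, at 11.5, 18.2, 17.8 and 12.5 CPM, and at 9.27, 12.1, 8.73, 8.25 and 12.4 CPM. C1qc was at 28.3, 18.9 and 22.8 CPM, at 16.1, 25.5, 20.5 and 18.2 CPM, and at 10.6, 15.2, 12.3, 9.10 and 15.96 CPM. Every library of the second run lay below WT for C1qa and C1qc, and libraries 73 and 76 passed the lowest WT value for C1qb. C1qa was 43.8% below WT in the second run (log2 fold change -0.83 ± 0.16, edgeR adjusted p = 0.0044), C1qb -0.56 ± 0.17 (adjusted p = 0.035) and C1qc -0.67 ± 0.18 (adjusted p = 0.022). In libraries 41 to 43 C1qa was 0.13 ± 0.18 on the log2 scale (adjusted p = 0.809).

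Laptm5, a lysosomal membrane protein of blood-derived cells and microglia, had the lowest adjusted p of the 36 genes in libraries 72 to 76 against WT. It lies at chr4:130913125-130936141 on the plus strand and was at 24.9, 14.9 and 21.4 CPM in libraries 41 to 43, at 21.3, 19.3, 17.5 and 20.4 CPM in WT libraries, and at 12.6, 13.2, 13.5, 10.9 and 13.4 CPM in libraries 72 to 76. The second run was lower than every other library, by 35.0% from WT (log2 fold change -0.62 ± 0.08, edgeR adjusted p = 0.00063).

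The transcription factors Spi1, also called PU.1, and Irf8, which together set up the myeloid programme, were both lower in the second run. Spi1 was at 2.90, 1.60 and 3.47 CPM in libraries 41 to 43, at 3.62, 2.92, 2.08 and 2.56 CPM in WT libraries, and at 1.89, 1.46, 1.93, 1.24 and 1.99 CPM in libraries 72 to 76. Irf8 was at 6.98, 4.62 and 4.69 CPM, at 6.02, 5.89, 5.05 and 4.43 CPM, and at 3.78, 3.86, 4.14, 3.06 and 4.33 CPM. Neither gene overlapped with WT in the second run, with log2 fold changes of -0.71 ± 0.22 for Spi1 and -0.48 ± 0.15 for Irf8 (edgeR adjusted p = 0.032 for both), but both calls were lost without libraries 43, 44 and 73. Fcgr3, an Fc receptor with close relatives in the same cluster, so that its reads may be shared, was at 6.83, 3.06 and 5.54 CPM, at 3.49, 5.42, 6.03 and 4.80 CPM, and at 2.59, 3.56, 3.66, 2.28 and 3.21 CPM. Its fall in the second run was -0.69 ± 0.19 on the log2 scale (edgeR adjusted p = 0.022), with library 73 and library 74 above WT library 44.

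The other 10 shared myeloid genes did not pass the edgeR test in any comparison, and Ly86 was the one of them above 0 in the second run. Ctss was at 94.1, 43.1 and 46.7 CPM in libraries 41 to 43, at 55.7, 62.5, 60.7 and 58.9 CPM in WT libraries, and at 48.6, 51.3, 52.4, 29.9 and 51.1 CPM in libraries 72 to 76. The second run lay below WT without overlap, with a log2 fold change of -0.35 ± 0.15 (edgeR adjusted p = 0.111), and DESeq2 called it, as did edgeR without library 75. Without libraries 43, 44 and 73, edgeR also called Fcer1g lower against WT and Lyz2 lower between the MFN2 runs. Trem2, the receptor on which the disease-associated state depends, was at 7.02, 2.60 and 3.66 CPM, at 3.88, 3.48, 3.85 and 3.91 CPM, and at 2.20, 3.91, 3.14, 2.40 and 3.26 CPM. The 4 WT libraries lay close together for Trem2 and library 41 stood alone at the top. Aif1, which encodes the marker Iba1, was at 4.35, 2.52 and 3.75 CPM, at 2.10, 3.63, 2.48 and 2.14 CPM, and at 1.41, 2.76, 2.37, 1.32 and 2.498 CPM, with overlap throughout. Ly86 was at 8.13, 4.93 and 4.46 CPM, at 4.58, 5.46, 4.83 and 6.31 CPM, and at 5.49, 5.47, 5.11, 4.22 and 6.78 CPM, which gave 0.03 ± 0.15 on the log2 scale in the second run.

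Lyz2 and Ptprc followed the blood markers of single libraries. Lyz2, the lysozyme of macrophages and neutrophils, was at 6.91, 4.35 and 5.44 CPM in libraries 41 to 43, at 15.9, 2.83, 5.71 and 6.16 CPM in WT libraries, and at 3.65, 9.43, 2.90, 2.25 and 3.31 CPM in libraries 72 to 76. It was the highest in WT library 44 and next in MFN2 library 73, the libraries with the highest leukocyte sums, 87.0 and 35.5 CPM. Ptprc, which encodes CD45, was 16.4 CPM in library 44 and 3.83 to 8.88 CPM in the other 11. Of the 16 leukocyte markers, 7 were tested and S100a9 was the most abundant, at a mean of 5.81 CPM, while Cd3e, Ly6g and Ccr2 were among the markers at 0 in at least 1 library. The log2 fold change of Lyz2 over all libraries was -0.68 ± 0.44 (edgeR adjusted p = 0.45), and it rested on library 44, since without it the value was -0.0372. Leaving out any other library gave values down to -0.959, without WT library 45. The part of blood cells in these values was not tested.

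**Figure D4:**
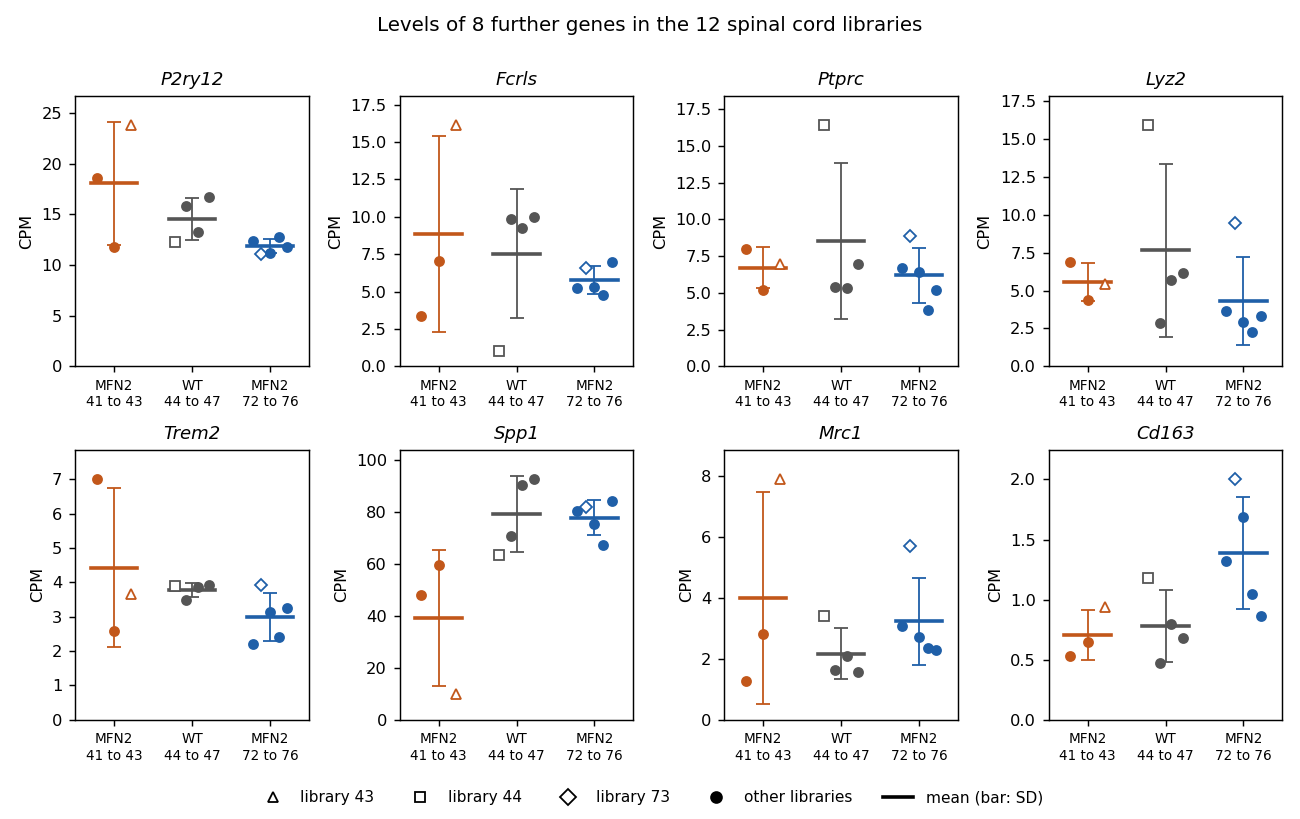
CPM in each of the 12 libraries for P2ry12, Fcrls, Ptprc, Lyz2, Trem2, Spp1, Mrc1 and Cd163, drawn as for the genes above. WT library 44 is highest for Ptprc and Lyz2 (16.4 and 15.9 CPM) and lowest for Fcrls (1.05 CPM), and MFN2 library 43 is highest for Mrc1 (7.93 CPM) and lowest for Spp1 (9.90 CPM).

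The disease-associated genes did not rise together in MFN2 mice. Gpnmb, a glycoprotein of lysosome-rich macrophages at chr6:49036546-49070929 on the plus strand, had the largest fitted change of the 36 genes in libraries 72 to 76 against WT. It was at 3.05, 0.993 and 1.55 CPM in libraries 41 to 43, at 1.18, 1.88, 2.88 and 2.35 CPM in WT libraries, and at 0, 0.752, 0.402, 0.465 and 0.612 CPM in libraries 72 to 76. Every library of the second run was below every other one, on counts of 0, 15, 10, 12 and 12 against 27, 40, 65 and 45 in WT. The log2 fold change was -2.22 ± 0.51 in the second run (edgeR adjusted p = 0.010) and -0.14 ± 0.44 in libraries 41 to 43 (adjusted p = 0.921). Gpnmb passed the filter only through libraries outside the second run, which lay below 1 CPM throughout.

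Axl, a receptor kinase that binds apoptotic cells through Gas6, lies at chr7:25757273-25788705 on the minus strand. It was at 70.5, 71.8 and 43.2 CPM in libraries 41 to 43, at 64.7, 70.1, 60.7 and 59.1 CPM in WT libraries, and at 53.1, 57.5, 50.3, 52.0 and 56.1 CPM in libraries 72 to 76. The second run was below all WT libraries by a small margin, with a log2 fold change of -0.24 ± 0.06 (edgeR adjusted p = 0.014).

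Spp1, which encodes osteopontin, split the MFN2 libraries the other way. It was at 48.1, 59.6 and 9.90 CPM in libraries 41 to 43, at 63.4, 70.8, 90.3 and 93.0 CPM in WT libraries, and at 80.5, 81.9, 75.3, 67.5 and 84.4 CPM in libraries 72 to 76. Libraries 41 to 43 were the lowest of the 12, by -1.001 ± 0.52 on the log2 scale from WT (edgeR adjusted p = 0.635; -0.545 without library 43 and -1.44 without library 42), while the second run was at -0.02 ± 0.11. The motor neuron sum was 1764, 2210 and 362 CPM in libraries 41 to 43, 1792 to 3050 CPM in WT and 2594 to 3178 CPM in libraries 72 to 76, and its part in the Spp1 levels was not tested. Clec7a, a lectin raised in disease-associated microglia, was at 1.49, 0.649 and 0.422 CPM, at 0.873, 1.88, 0.753 and 0.678 CPM, and at 1.23, 2.21, 1.89, 0.581 and 1.78 CPM. Its log2 fold change was 0.28 ± 0.46 over all libraries (edgeR adjusted p = 0.776) and 0.54 ± 0.40 in the second run (adjusted p = 0.352), with overlap in both. Outside the second run only libraries 41 and 45 were above 1 CPM, so that Clec7a passed the filter through the second run, where its mean CPM was above that of WT. Lpl, a lipase that neurons and oligodendrocyte precursors also express, ranged from 2.75 to 12.9 CPM and did not pass the test in any comparison.

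In libraries 72 to 76 and over all libraries the 3 tested perivascular genes lay above 0, without passing the test, and without library 73 F13a1 lay below it (-0.219 on the log2 scale in libraries 72 to 76). Mrc1, the mannose receptor, was at 1.26, 2.83 and 7.93 CPM in libraries 41 to 43, at 3.40, 1.65, 2.08 and 1.56 CPM in WT libraries, and at 3.08, 5.72, 2.74, 2.36 and 2.29 CPM in libraries 72 to 76. Cd163, the receptor for haptoglobin and haemoglobin, was at 0.534, 0.649 and 0.939 CPM, at 1.18, 0.471, 0.797 and 0.678 CPM, and at 1.32, 2.01, 1.69, 1.04 and 0.867 CPM. F13a1, a coagulation factor subunit of these macrophages, was at 0.954, 1.64 and 2.67 CPM, at 3.80, 1.13, 1.51 and 1.62 CPM, and at 2.42, 4.16, 1.61, 1.28 and 1.63 CPM. Libraries 43, 44 and 73, which stood apart by their markers, held the highest values of Mrc1 and F13a1, and libraries 72 to 74 those of Cd163. In the second run the log2 fold changes were 0.56 ± 0.32 for Mrc1, 0.82 ± 0.33 for Cd163 and 0.13 ± 0.42 for F13a1, with edgeR adjusted p of 0.217, 0.086 and 0.861. Over all libraries they were 0.69 ± 0.44, 0.52 ± 0.38 and 0.01 ± 0.40. Outside the second run only WT library 44 was above 1 CPM for Cd163, so that this gene passed the filter through libraries 72 to 75, where it is high, and its fold change and its call as higher in the refit without library 44 are set in part by the filter. The part of attached membranes or roots in these levels was not tested.

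Within the MFN2 genotype, libraries 72 to 76 were set against libraries 41 to 43, which is also the test of whether the difference from WT depends on the run. Of the 36 genes 2 passed, Cx3cr1 (-0.70 ± 0.14, edgeR adjusted p = 0.0498) and Selplg (-0.90 ± 0.19, adjusted p = 0.0499), both lower, while 2.29% of all genes were called, 1.14% as lower and 1.15% as higher. At an unadjusted p of 0.05 the count was 18 of 36 genes against 3903 of 15942 genes. All 11 identity genes and all 17 shared myeloid genes had a log2 fold change below 0, and the median of the 36 was -0.51 against -0.0039 over all genes. Levels did not overlap for 10 of the 36 genes, 9 lower and Spp1 higher, against 18.2% of all genes, 8.59% lower and 9.62% higher. Gpnmb, which passed the filter only outside libraries 72 to 76, is one of the 9. Tmem119 was -0.87 ± 0.22, C1qa -0.95 ± 0.22, C1qc -0.90 ± 0.20 and Laptm5 -0.69 ± 0.16 on the log2 scale, with edgeR adjusted p of 0.0713, 0.0621, 0.0582 and 0.0597, while Gpnmb was -2.08 ± 0.66 (adjusted p = 0.116). Without library 43 the test called 8 of the 36 genes, 7 lower and Spp1 higher, and without library 42 it called 7, beside 14.9% and 1.62% of all genes, whereas it called 0 without library 41 or without any 1 of libraries 72 to 76. All libraries in this comparison carry the same genotype label.

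Summed over genes, the level of microglial identity in libraries 72 to 76 was 78.7% of the WT mean and that of the shared myeloid genes 71.4%. In libraries 41 to 43 the sums were 108% and 106% of the WT mean. The sum of the 28 genes in libraries 41, 42 and 43 was 526, 320 and 430 CPM, in WT libraries 364, 434, 390 and 401 CPM, and in libraries 72 to 76 it was 297, 322, 297, 242 and 336 CPM. Library 42 lay with the second run on this measure. Library 75 was the lowest of the 12 libraries for 17 of the 28 genes and library 41 the highest for 16.

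**Figure D5:**
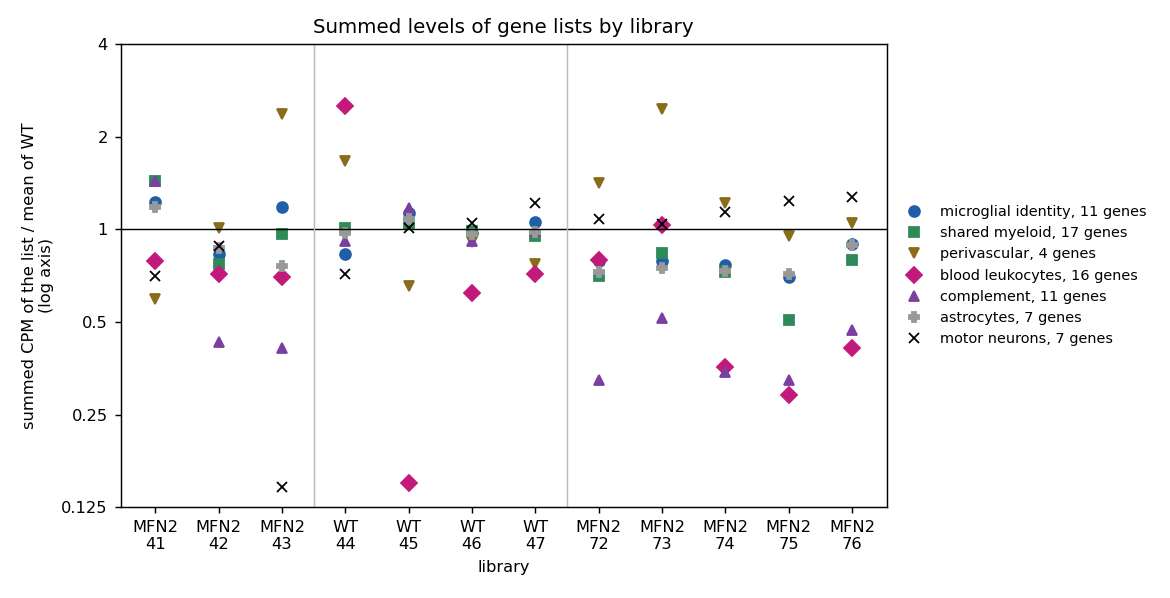
Summed CPM of each gene list in each library divided by the mean of the 4 WT libraries, on a log axis. The sums of identity and shared myeloid genes lie below 1 in all of libraries 72 to 76 and in library 42, complement lies at 0.323 to 0.514 in libraries 72 to 76, and library 44 stands at 2.51 for blood leukocytes.

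Genes of the same cells outside the 39 were counted from lists written with earlier results of these data known. Of 39 tested further microglial genes, 5 (12.8%) were lower in libraries 72 to 76 than in WT and 2 higher at an FDR of 0.05, a share near the 12.2% of all genes that were lower, with a median log2 fold change of -0.09. Abi3 (-1.13 ± 0.20) and Vsir (-0.54 ± 0.09) were lower, with edgeR adjusted p of 0.0025 and 0.0021. Abi3 was at 5.04, 2.98 and 3.61 CPM in libraries 41 to 43, at 4.28, 5.84, 4.39 and 3.23 CPM in WT and at 2.06, 2.16, 2.13, 1.39 and 2.40 CPM in libraries 72 to 76, which lay below every other library. Rgs10 (0.51 ± 0.09, adjusted p = 0.0025) and the phagocytic receptor Mertk (0.63 ± 0.12, adjusted p = 0.0041) were higher; both are expressed by other neural cells as well, and Mertk was highest in library 43 at 32.4 CPM. The most abundant gene of this list, Sparc, at a mean of 772 CPM, is a matrix protein of astrocytes and vessels too, so that the sum of the list does not follow microglia.

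Of 16 tested further disease-associated genes, 6 (37.5%) were lower and 1 higher in the second run, where 12.2% of all genes were lower and 11.4% higher. Cd63 (-0.46 ± 0.06), Ctsd (-0.50 ± 0.07) and Ctsz (-0.65 ± 0.12), which encode a vesicle protein and lysosomal proteases, were lower with edgeR adjusted p of 0.00039, 0.00086 and 0.0038. Apoe, the most abundant of the list at a mean of 1478 CPM, is made by astrocytes as well. The chemokines Ccl3 and Ccl4 had too few counts to be tested, at no more than 0.816 and 0.561 CPM.

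Among 11 ligands and brakes of microglia, 3 were lower and 1 higher in the second run, where 23.5% of all genes were called. Cd200, a neuronal protein that restrains microglia, was higher (0.40 ± 0.08, edgeR adjusted p = 0.0042), and C3 (-2.28 ± 0.34, adjusted p = 0.0035) and Gas6 (-0.20 ± 0.05, adjusted p = 0.016) were lower. The ligands of Csf1r, Csf1 and Il34, were -0.22 ± 0.10 and 0.16 ± 0.14, and the ligand of Cx3cr1, Cx3cl1, was 0.04 ± 0.07, with adjusted p of 0.149, 0.437 and 0.706. Il34 and Cx3cl1 were highest in library 43, at 24.3 and 470 CPM, against at most 6.29 and 167 CPM in the others.

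Complement genes outside C1q were lower in the second run for 2 of 7 tested, C3 and C4b, where 12.2% of all genes were lower. All 7 lay below 0, the highest at -0.0009 on the log2 scale. This list holds Itgam, which is also 1 of the 39 genes, and C3, which was also counted among the ligands and brakes. C3, the central component, was at 117, 22.3 and 4.03 CPM in libraries 41 to 43, at 53.1, 98.5, 67.0 and 83.1 CPM in WT, and at 10.3, 13.3, 12.4, 12.7 and 29.5 CPM in libraries 72 to 76. C4b was at 62.9, 20.0 and 14.9 CPM, at 54.0, 48.0, 40.0 and 34.8 CPM, and at 16.4, 24.7, 17.9, 16.03 and 19.9 CPM, a log2 fold change of -1.22 ± 0.15 (edgeR adjusted p = 0.00071). Both lay below every WT library in the second run and in libraries 42 and 43 alike, and library 41 was the highest of the 12 for both, as it was for Ctss and Trem2.

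Most cytokine genes had few counts. Of 10 cytokine genes 2 were tested, Il18 and Nos2, and in libraries 72 to 76 against WT 0 of them were called by edgeR, DESeq2 or limma-voom or passed an unadjusted p of 0.05 in edgeR. Tnf was at most 0.201 CPM, Il1b at most 0.786 CPM and Il6 at most 0.0522 CPM, values from a few counts. Of 10 genes of cell division 8 were tested and in the same comparison 0 were called by edgeR, DESeq2 or limma-voom, with 0 at an unadjusted p of 0.05 in edgeR, and Mki67 was highest in WT library 44 at 78.8 CPM.

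Markers of other cells were counted in the same comparison, in which 12.2% of all genes were lower and 11.4% higher. Single genes called out of 7, as in endothelium and forebrain, are near that share. Of 7 astrocyte genes 5 were lower and 0 higher than in WT in edgeR, all 7 lay below 0, and the median log2 fold change was -0.29. Gfap was at 3002, 1223 and 276 CPM in libraries 41 to 43, at 1549, 2762, 1926 and 2029 CPM in WT, and at 757, 985, 775, 806 and 1566 CPM in libraries 72 to 76 (log2 fold change -1.08 ± 0.26, edgeR adjusted p = 0.022). Of 7 endothelial genes 1 was lower, Cldn5 (-0.81 ± 0.17, adjusted p = 0.0069), and without libraries 43, 44 and 73 this count was 4. Of 7 genes of pericytes and vascular muscle 2 were lower, Acta2 (-1.06 ± 0.24) and Myh11 (-0.76 ± 0.21). Of 7 neuronal genes 2 were higher, Syt1 (0.48 ± 0.14) and Nefm (0.36 ± 0.11), of 7 tested forebrain genes 1, Nrgn (0.58 ± 0.12), and of 5 genes of red blood cells 1, Alas2 (1.18 ± 0.36).

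In the same comparison edgeR called 0 of 7 oligodendrocyte genes, 0 of 7 motor neuron genes, 0 of 7 fibroblast genes, 0 of 6 tested Schwann cell genes, 0 of 8 caudal Hox genes and 0 of 7 tested leukocyte genes. At an unadjusted p of 0.05 these counts were 2, 1, 1, 1, 1 and 0, DESeq2 called 1 oligodendrocyte gene and 1 Hox gene, and limma-voom called 0. Among the abundant markers were Mbp, which oligodendrocytes share with Schwann cells, at a mean of 8955 CPM, Slc1a2 of astrocytes at 3342 CPM, Nefh of motor neurons at 2181 CPM, Col1a1 of fibroblasts at 124 CPM, Rgs5 of pericytes at 98.9 CPM and Flt1 of endothelium at 56.2 CPM. The part of a changed makeup of the tissue samples in the microglial genes was not tested.

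The promoters of the genes were searched for the PU box, the letters GAGGAA read on both strands, a core of the sites bound by the transcription factor Spi1. RefSeq windows on GRCm38.p6, from 250 bases before to 50 bases after the start, were at hand for 30 of the 39 genes, in 38 windows. A match lay in 21 of these windows (55.3%) and in 28.3% of all 32851 windows. Of the 14 genes lower in libraries 72 to 76, 9 had a window and 5 of these a match, and of the 22 genes tested and not called, 19 had a window and 13 a match. A match is a description of the letters and not a site of binding. The longer form AGGAAGT, which can overlap it, was in 34.2% of the windows of these genes and 9.35% of all, and the E-box CACGTG in 5.26% and 7.15%. The 250 bases before the start are shown for Laptm5 (chr4:130913066-130913315, plus strand), C1qb (chr4:136886201-136886450, minus strand), C1qc (chr4:136892915-136893164, minus strand) and Cx3cr1 (chr9:120068297-120068546, minus strand), which were among the genes lower in libraries 72 to 76. They are written 5′ to 3′ in the direction of transcription with the match on either strand in capitals.
Laptm5: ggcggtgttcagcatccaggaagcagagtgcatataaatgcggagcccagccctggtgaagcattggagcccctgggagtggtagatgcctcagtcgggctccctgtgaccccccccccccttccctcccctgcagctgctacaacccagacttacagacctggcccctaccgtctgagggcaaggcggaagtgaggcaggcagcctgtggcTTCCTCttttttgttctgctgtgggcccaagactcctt
C1qb: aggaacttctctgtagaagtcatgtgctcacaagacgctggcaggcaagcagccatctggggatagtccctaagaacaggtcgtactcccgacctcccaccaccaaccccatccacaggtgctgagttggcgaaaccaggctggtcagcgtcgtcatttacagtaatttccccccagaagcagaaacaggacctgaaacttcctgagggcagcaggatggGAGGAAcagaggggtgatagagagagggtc
C1qc: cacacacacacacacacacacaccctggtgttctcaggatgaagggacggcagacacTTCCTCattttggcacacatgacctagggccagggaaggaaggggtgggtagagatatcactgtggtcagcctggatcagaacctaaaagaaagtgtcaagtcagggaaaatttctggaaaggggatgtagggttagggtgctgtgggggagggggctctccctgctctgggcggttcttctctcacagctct
Cx3cr1: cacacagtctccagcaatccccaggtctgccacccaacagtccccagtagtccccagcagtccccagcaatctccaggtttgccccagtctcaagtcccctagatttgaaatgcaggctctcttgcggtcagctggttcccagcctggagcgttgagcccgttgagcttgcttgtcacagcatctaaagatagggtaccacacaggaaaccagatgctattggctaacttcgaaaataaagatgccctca
The match starts 38 bases before the start in Laptm5, 30 bases before it in C1qb and 193 bases before it in C1qc, and Cx3cr1 held none in this window.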

How the data were processed

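RNA was extracted from the lumbar spinal cord of 12 mice and sequenced as 1 library per mouse. The authors deposited whole-number counts per Ensembl gene, made from reads trimmed of adapters and aligned with STAR to GRCm38 (GRCm38.p6 in the submitters' processing notes). The counting tool, its strand setting and the annotation release are not given in the sources used here. Genes above 1 CPM in 3 or more of the 12 libraries were retained, scaled by TMM and tested with edgeR's quasi-likelihood test (edgeR 4.0.16, R 4.3.3) at a Benjamini-Hochberg FDR of 0.05 over all genes. CPM are counts scaled to the effective library size, except in the filter, where the total count was used. RPKM are CPM per kilobase of exon in GENCODE release M21. DESeq2 1.42.0, limma-voom (limma 3.58.1), other scalings and filters, a run covariate and leaving out libraries were the alternatives. No pair of libraries of a group agreed within counting noise, so none was treated as 1 library deposited again; p-values measure the spread between mice.

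The 39 genes, the other lists and the tests were chosen with earlier results of these data known. Values in every library are given for genes called or not overlapping in any comparison with WT, for the largest rise and fall of each group over all libraries, and for Cx3cr1, P2ry12, Tmem119, Csf1r, Aif1, Trem2, C1qa, Cst7, Itgax, Clec7a, Spp1, Mrc1 and Cd163. From the other lists the most abundant gene and up to 3 genes of lowest adjusted p are named; Ptprc, Siglech, Mki67, Prx, Csf1, Il34, Cx3cl1 and the cytokines were named after their values were seen, and some genes are not reported here. The test was checked on simulated data in which every gene had a dispersion of 0.02, without a run effect or a library of other tissue. At a simulated log2 fold change of 0.5 it recovered 43% of the changed genes over all libraries and 18.4% in libraries 72 to 76 against WT. At 1 it recovered 99% and 97.9%. The real libraries differ from the simulated ones in these respects, so the shares are not the power of the test in them.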

Additional observations from a re-analysis of the deposited data

Results flagged for a closer look

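In 10 of 72 groups of values, the 8 MFN2 or 4 WT libraries of a gene, 1 library lay far from the nearest of the others relative to the range of the group; chance alone flags about 1 in 20 groups, or 3.6 here. Library 41 was far above the other MFN2 libraries for Trem2 (7.02 CPM, gap over range 0.644), Ctss (94.1 CPM, 0.649) and Irf8 (6.98 CPM, 0.583). Library 43, the one with forebrain transcripts, was far above them for Siglech (10.3 CPM, 0.679) and Fcrls (16.1 CPM, 0.715). WT library 44, the one with leukocyte transcripts, was far above the other WT libraries for Ptprc (16.4 CPM, 0.854) and far below them for Fcrls (1.05 CPM, 0.921). WT library 45 was apart for Clec7a (1.88 CPM, high, 0.838) and Trem2 (3.48 CPM, low, 0.862), and WT library 47 for Tyrobp (2.87 CPM, low, 0.860). The WT values of Trem2 all lay between 3.48 and 3.91 CPM.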

How the results depend on the processing

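No paired analysis was possible because the genotypes share no number. Over all libraries, with the run entered as a covariate, the log2 fold change turned to 0.191 for Cx3cr1, 0.312 for P2ry12, 0.105 for Tmem119, 0.239 for Csf1r and 0.187 for Selplg. It turned to 0.112 for C1qa, 0.0544 for Laptm5, -0.279 for Clec7a, -0.161 for Cd163 and -0.211 for F13a1. All WT libraries are in 1 run, so the genotype term of this fit rests on libraries 41 to 43 against WT. Libraries 72 to 76 enter its run term, and for them the fit cannot separate run from genotype. Values that had not passed the test in the reported fit changed sign in other settings: P2ry12 over all libraries was 0.00882 and Spp1 in libraries 72 to 76 was 0.0423 with library size only, limma-voom gave -0.0278 for Olfml3 and -0.0144 for F13a1 over all libraries and 0.0671 for Fcrls in libraries 72 to 76, and without libraries 43, 44 and 73 Tmem119 in libraries 41 to 43 was -0.111, Ly86 in libraries 72 to 76 -0.0395 and Olfml3 over all libraries -0.184. The causes were not tested.

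Leaving out 1 library at a time, the log2 fold change over all libraries ranged from -0.180 to 0.0391 for P2ry12, -0.0722 to 0.0610 for Olfml3 and -0.205 to 0.521 for F13a1, in libraries 41 to 43 from -0.0375 to 0.366 for Tmem119, -0.104 to 0.249 for C1qa and -0.686 to 0.167 for Gpnmb, and in libraries 72 to 76 from -0.123 to 0.0571 for Spp1, -0.0565 to 0.124 for Ly86 and -0.219 to 0.633 for F13a1.

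Of all genes, 0 to 19 were called over all libraries with 1 library left out, the highest count without library 43, 200 with DESeq2 and 35 without libraries 43, 44 and 73. In libraries 41 to 43 this count was 0 to 2 with 1 library left out, 0 without a filter or with limma-voom, 4 with DESeq2 and 7 without libraries 43 and 44. In libraries 72 to 76 the count was 2354 (without WT library 45) to 4524 (without WT library 44), and that of the 36 genes 7 to 16 without the same libraries. Between the MFN2 runs, 0 to 8 of the 36 genes and 31 to 2363 of all genes were called with 1 library left out. There, 0 of the 36 were called with upper-quartile scaling, library size only, DESeq2 size factors or limma-voom, 1 with filterByExpr, 5 without a filter, 7 without libraries 43 and 73 and 11 with DESeq2, which called 1774 of all genes; without libraries 43 and 73, 1837 were called. Higher calls there were 50.4% of all calls with TMM, 66.9% with upper-quartile scaling and 72.5% with library size only.

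Counts under 1 CPM, as for Gpnmb in libraries 72 to 76, limit what can be said of Cst7, Itgax, Lyve1 and the cytokines. Of 57 fold changes followed, leaving out 1 library kept the direction and side of the threshold in 452 refits, lost the call in 47, gained it in 13 and turned the direction in 27; the other settings did so in 424, 16, 14 and 18.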
